A study of Mus musculus with 8 samples.

Results

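The 5 wild-type hearts of a series of 8 embryonic mouse hearts are described here, each from its own RNA library and chosen by the genotype in the labels. The group is labelled MOZ WT: both alleles of Kat6a (Moz), the gene of a histone acetyltransferase, were intact (Kat6a+/+), no treatment was recorded, and whole hearts were taken at embryonic day E10.5. The other 3 hearts had lost both Kat6a alleles and were not analysed here. The labels do not give the strain, litter or sex of the embryos, nor whether hearts were pooled, so every spread between the 5 hearts, and every p-value made from it, describes these libraries and may hold technical variation.

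At this stage the mouse heart has looped into a single tube with a common atrium, an atrioventricular canal, ventricles with trabeculae and an outflow tract. Its myocytes are lined inside by endocardium, cushion mesenchyme is forming between the layers, epicardium is spreading over the surface, and the lumen holds primitive red blood cells made in the yolk sac. Atrial and ventricular myocytes build the same contractile filament from partly different gene copies, and several of those copies change over later development, so the balance within a gene pair marks both chamber and stage.

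Each heart had between 20817852 and 34539787 counts over 27179 genes. Levels are given as TPM, a transcript abundance per length: each count was divided by the deposited gene length and scaled so that every heart sums to the same total, which removes the advantage of long genes. Values for single hearts are given in the order of replicates 1 to 5. In each heart 13879 to 14005 genes reached 1 TPM, 1945 to 2021 reached 100 TPM and 81 to 93 reached 1000 TPM. A chi-square test of counts found a difference beyond counting error for each of the 10 pairs of hearts (11.7 to 30.0 for each degree of freedom), so none was the same library deposited again. In such bulk samples, fewer cells of a type and less RNA per cell cannot be told apart.

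The transcriptome was led by contractile genes, embryonic globins and imprinted genes. The 20 genes of highest mean TPM held 13.9% ± 1.18 (SD, n = 5) of all TPM, and the top 100 held between 25% and 28.0%. Among the 20 were 8 genes of the contractile filament: Actc1, the cardiac alpha actin, the myosin light chains Myl2, Myl4, Myl7 and Myl3, the troponins Tnnt2 and Tnni1, and the myosin heavy chain Myh7. Beside them stood 3 globin genes (Hbb-y, Hba-x and Hbb-bh1), the imprinted genes H19, a long non-coding RNA, and Mest, and Nppa, which encodes atrial natriuretic peptide. The other 6 were the translation factor Eef1a1, the ATP synthase subunit Atp5b, the chaperone Hsp90ab1, Ubb-ps and 2 genes listed by number only.

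Actc1 stood at 16840, 16287, 16324, 15216 and 15760 TPM (16085 ± 618, SD, n = 5). It was the gene of highest mean among those with a symbol. The 2 genes without a symbol, IDs 100628626 and 100628579, are only 82 and 87 bases long and had means of 17323 and 6788 TPM. Levels per length are unsteady for such short genes: the 953 genes under 200 bases held 2.48% to 3.39% of all TPM. Ubb-ps, a ubiquitin pseudogene at 3680 ± 202 TPM, can share reads with Ubb, so its level is uncertain. The 15 mitochondrial genes were all listed at 0, so the mitochondrial share of the RNA was not analysed here.

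**Figure D1:**
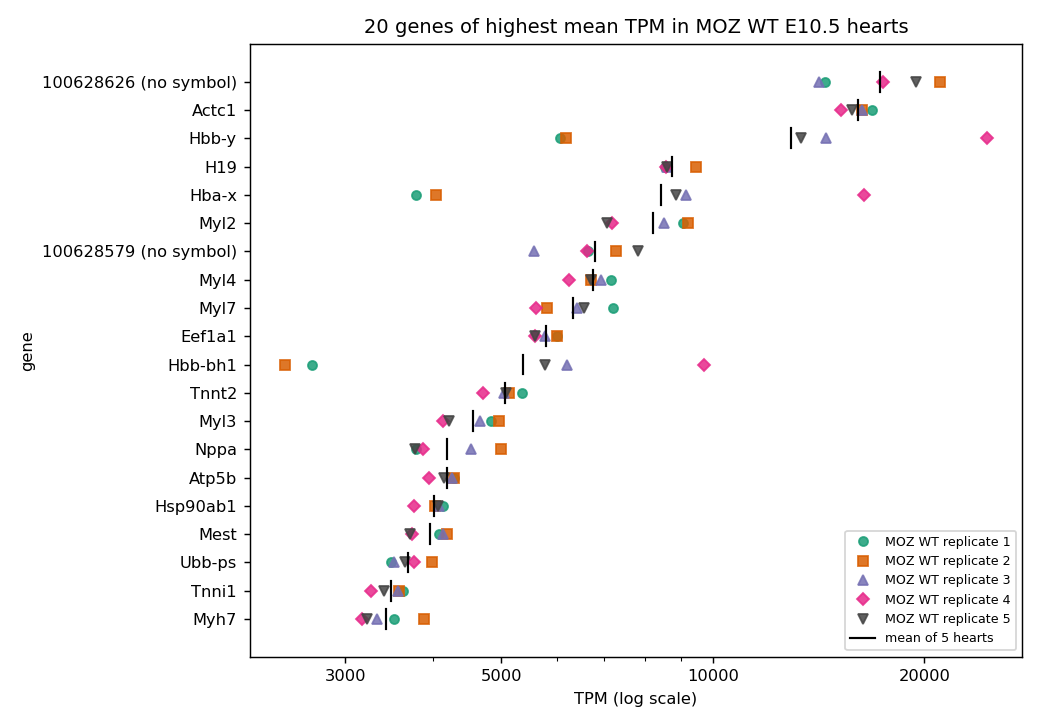
The 20 genes of highest mean TPM in the 5 wild-type E10.5 hearts, 1 row per gene, with TPM on a log axis, a symbol for each heart and a black bar for the mean. The 3 globin rows spread widely, with Hbb-y from 6066 to 24597 TPM, while the contractile rows such as Actc1 (15216 to 16840 TPM) are narrower.

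The promoters of 3 leading cardiac genes and 2 leading globin genes are shown. Their spread between hearts (the CV defined further on) was 3.45% for Actc1, 9.91% for Myl7 and 12.6% for Nppa. It was 59.9% for Hbb-y and 61.8% for Hba-x. Each run is the 250 bases before the gene's start in RefSeq, build GRCm38.p6, read with the gene. Actc1 lies at chr2:114052876-114053125 on the minus strand, Myl7 at chr11:5898783-5899032 on the minus strand and Nppa at chr4:148000472-148000721 on the plus strand. Capitals in these 3 mark the CArG box (the site of serum response factor) and GATAA (the core of a GATA site), searched on both strands.
Actc1: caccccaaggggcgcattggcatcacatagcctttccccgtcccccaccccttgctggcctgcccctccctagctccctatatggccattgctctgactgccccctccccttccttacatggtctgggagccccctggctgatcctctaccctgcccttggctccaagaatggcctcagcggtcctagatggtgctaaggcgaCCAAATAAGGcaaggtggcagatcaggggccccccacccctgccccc
Myl7: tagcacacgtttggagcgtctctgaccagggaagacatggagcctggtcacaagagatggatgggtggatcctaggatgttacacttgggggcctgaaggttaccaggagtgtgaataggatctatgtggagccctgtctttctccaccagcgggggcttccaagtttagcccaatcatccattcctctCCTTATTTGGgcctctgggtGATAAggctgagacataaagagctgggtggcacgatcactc
Nppa: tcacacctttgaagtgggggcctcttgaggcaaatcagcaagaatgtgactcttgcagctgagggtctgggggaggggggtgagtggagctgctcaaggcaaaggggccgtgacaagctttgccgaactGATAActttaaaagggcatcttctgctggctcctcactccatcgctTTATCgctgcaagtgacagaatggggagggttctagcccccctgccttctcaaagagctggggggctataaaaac
Actc1 had 1 CArG box, which began 47 bases before the start. Myl7 had a CArG box 61 bases before the start and GATAA 41 bases before it. Nppa had GATAA 121 bases before the start, a further GATAA on the opposite strand (printed as its reverse complement) 75 bases before it, and no CArG box in this window. Hbb-y lies at chr7:103853208-103853457 on the minus strand and Hba-x at chr11:32276350-32276599 on the plus strand. Capitals in these mark 3 motifs searched on both strands: the GATAA above, then CACCC, the core of a Krüppel-like factor site, and also the promoter box CCAAT.
Hbb-y: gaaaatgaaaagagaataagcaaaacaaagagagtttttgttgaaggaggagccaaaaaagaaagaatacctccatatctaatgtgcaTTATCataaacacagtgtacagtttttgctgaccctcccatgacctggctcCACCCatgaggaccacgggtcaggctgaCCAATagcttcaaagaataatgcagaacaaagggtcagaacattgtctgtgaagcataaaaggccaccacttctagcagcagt
Hba-x: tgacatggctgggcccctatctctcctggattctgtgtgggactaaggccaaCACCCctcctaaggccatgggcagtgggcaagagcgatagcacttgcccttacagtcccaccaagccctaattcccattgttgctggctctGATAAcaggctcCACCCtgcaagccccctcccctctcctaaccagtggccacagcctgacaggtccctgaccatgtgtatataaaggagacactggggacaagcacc
Hbb-y had a GATAA, on the opposite strand, 162 bases before the start. Its CACCC lay at 111 bases and its CCAAT at 83 bases. In Hba-x the GATAA lay at 107 bases, and CACCC occurred at 198 and at 95 bases. Of 32851 mouse promoters of the same length, 1.5% held a CArG box, 22.6% a GATAA, 52.0% a CACCC and 33.8% a CCAAT, so the short motifs are common by letters alone. These matches are descriptions of sequence, and binding was not measured.

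The contractile apparatus was abundant, and its summed levels were similar in the 5 hearts. The 13 genes of the thick filament and M-band summed to 36781, 35219, 34817, 31204 and 33263 TPM, and the 26 genes of the thin filament and Z-disc to 43148, 41666, 41359, 38190 and 40404 TPM. Both sums were lowest in replicate 4, and the highest heart exceeded the lowest by 1.18-fold and 1.13-fold. Together these 39 genes took 7.52% ± 0.394 (SD, n = 5) of all TPM. TPM is a share, and replicate 4 is also the heart with the most red cell RNA, where the 20 erythroid genes described further on took 6.33% of TPM. From replicate 1 to replicate 4 the filament share went from 7.99% to 6.94%, and the erythroid share from 1.57% to 6.33%. The part of red cell RNA in the lower filament sums was not tested.

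Atrial and ventricular forms of the myosin light chains were present at like levels. Myl7, the regulatory light chain that becomes restricted to atria, was at 7212, 5815, 6415, 5605 and 6551 TPM. Myl2, the regulatory light chain of ventricles, was at 9071, 9212, 8528, 7184 and 7077 TPM. Myl2 was the higher of the pair in 5 of 5 hearts, by a log2 ratio of Myl7 over Myl2 of -0.37 ± 0.20 (SD, n = 5), although the 2 ranges overlap between hearts. Among the essential light chains the order was the other way: Myl4, the atrial and embryonic form, exceeded Myl3, the ventricular form, by a log2 ratio of 0.57 ± 0.09 in 5 of 5 hearts. No exact two-sided test over 5 hearts can give a p below 0.0625, so these ratios are given with their spread alone.

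The heavy chains differed by a similar amount, with more spread between hearts. Myh7, the beta heavy chain that dominates fetal ventricles, was at 3514, 3887, 3328, 3165 and 3221 TPM. Myh6, the alpha heavy chain of atria and of the adult mouse ventricle, was at 2552, 2231, 2576, 2668 and 3106 TPM. The log2 ratio of Myh6 over Myh7 was -0.46, -0.80, -0.37, -0.25 and -0.05: Myh7 was higher in each heart, but in replicate 5 the chains were almost level. The genes share long stretches of coding sequence, and how the authors' counting treated reads that fit both is not stated in the labels.

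The other filament pairs had a clear leading member. Tnni1, the slow skeletal troponin I that the fetal heart uses, exceeded Tnni3, the adult cardiac form, by a log2 ratio of 1.35 ± 0.03 (3487 against 1367 TPM), the narrowest spread of the filament pairs. Tnnt2, the cardiac troponin T, exceeded Tnnt1 24.9-fold, and Tpm1, the cardiac tropomyosin, exceeded Tpm2 19-fold. Among the actins Actc1 exceeded the skeletal Acta1 17.4-fold and the smooth muscle Acta2 5.52-fold, yet Acta2 alone stood at 2921 ± 268 TPM. Tnnc2, the fast skeletal troponin C, was close to absent at 1.58 TPM beside 2571 TPM of Tnnc1. At the lower end, the giant titin gene Ttn had 24.9 ± 2.19 TPM.

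**Figure D2:**
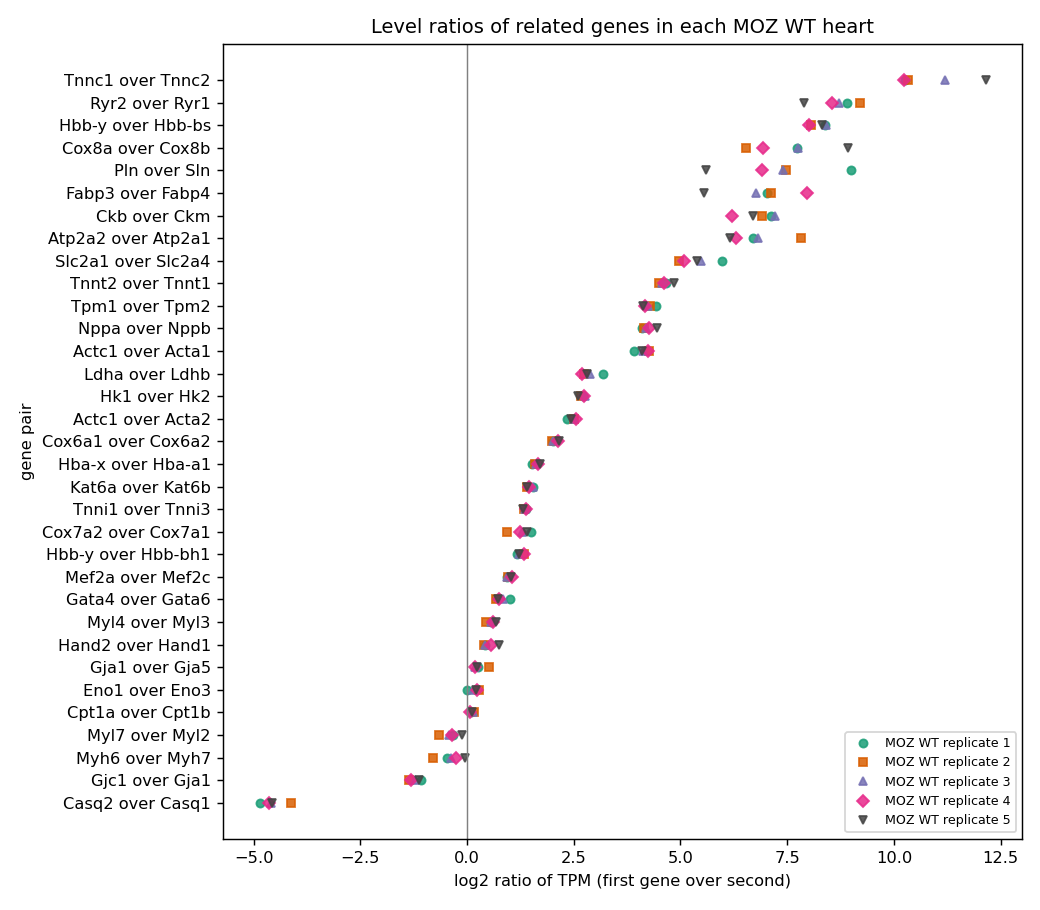
Log2 ratio of TPM of the first gene over the second for 33 pairs of related genes, with a symbol for each of the 5 wild-type hearts and a grey line at equal levels. Myl7 over Myl2 (mean -0.37) and Myh6 over Myh7 (mean -0.39) sit just left of equality, Tnni1 over Tnni3 (1.35) just right of it, and Casq2 over Casq1 (-4.55) far to the left.

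Calcium handling followed the cardiac pattern with an exception in calsequestrin. Atp2a2, the cardiac SERCA pump, was at 1226 ± 50.3 TPM and exceeded the fast skeletal pump gene Atp2a1 108-fold, and the cardiac ryanodine receptor Ryr2 exceeded Ryr1 403-fold. Casq1, named as the skeletal form of the calcium store protein calsequestrin, was at 564, 483, 553, 466 and 521 TPM. Casq2, the form of the adult heart, was at 19.5, 27.9, 22.8, 18.7 and 22.0 TPM, so Casq1 was 23.5-fold higher and the ranges lay far apart. Pln, encoding phospholamban, which restrains the pump, was at 341 ± 61.8 TPM against 2.70 ± 1.83 TPM for its atrial relative Sln. The pacemaker channel gene Hcn4 was at 68.0 ± 14.7 TPM.

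Gap junction genes were led by Gja1 (connexin 43) at 156 ± 17.8 TPM and Gja5 (connexin 40) at 129 ± 8.45 TPM, whose ranges overlapped. Gjc1 (connexin 45) was lower than Gja1 in 5 of 5 hearts, by a log2 ratio of -1.22 ± 0.12. Kcnh2, the gene of a repolarising potassium channel, followed with 127 TPM. The natriuretic peptides, which mark atria and trabeculae at this stage, stood at 3777, 5004, 4528, 3875 and 3771 TPM for Nppa and at 221, 282, 249, 201 and 172 TPM for Nppb. Both were highest in replicate 2. Cited1, a transcriptional cofactor of trabecular myocytes, had 575 TPM and Bmp10, a trabecular growth factor, 112 ± 10.1 TPM.

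Cardiac transcription factors were moderate in level, and the sum of their 23 genes varied by a CV of only 2.45% between hearts. Nkx2-5, a homeobox factor of the myocardium, led with 540, 503, 536, 534 and 569 TPM, followed by Smyd1, a muscle methyltransferase, with 482 ± 24.5 TPM and the zinc finger factor Gata4 with 307 ± 10.4 TPM. The homeodomain protein gene Hopx had 211 ± 26.7 TPM, Tbx20 202 ± 11.2 TPM and Tbx5 66.2 ± 5.77 TPM. Gata4 exceeded Gata6 1.74-fold and Hand2 exceeded Hand1 1.43-fold, without overlap of the ranges. Mef2a exceeded Mef2c by a log2 ratio of 0.98 per length, but the order turned to -0.21 when counts were not divided by length. Kat6a itself was at 36.7, 38.7, 37.5, 36.6 and 41.5 TPM, above its paralogue Kat6b by a log2 ratio of 1.47 ± 0.08, so the gene deleted in the other arm of the study was present at a steady moderate level in all 5 hearts.

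Of the other lineages of the heart, endothelium, epicardium and cushion mesenchyme were readily measured, while most neural crest genes were low. Endothelium and endocardium were led by Ramp2, a receptor activity modifier, at 176 ± 13.1 TPM, the semaphorin receptor Plxnd1 at 172 ± 16.6 TPM and the TGF-beta co-receptor Eng at 161 ± 4.33 TPM. Npr3, which marks endocardium, had 76.4 ± 4.76 TPM. Epicardium was led by Podxl (176 ± 17.3 TPM), which endothelium also expresses, and by Upk3b (159 ± 15.9 TPM), a surface protein of mesothelium, with the factors Tcf21 at 69.0 and Wt1 at 40.5 TPM. Cushion mesenchyme and matrix were led by the collagens Col2a1 (398 ± 50.8 TPM) and Col3a1 (276 ± 44.6 TPM) and by Hapln1 (224 ± 21.6 TPM), which links hyaluronan to proteoglycan. In the neural crest list 7 of 11 genes were under 1 TPM. The list was led by Ednrb (64.4 TPM) and Ets1 (55.5 TPM), which endothelium also uses. Its narrower marker Sox10 was low (0.859 TPM), and Foxd3 and Tfap2b were listed at 0.

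Regional genes of the inflow and outflow poles were low but present. Of the atrioventricular canal and sinus venosus, the signalling gene Rspo3 had 51.8 TPM, Bmp2 47.6 ± 2.31 TPM and the factor Tbx18, which epicardium shares, 44.3 ± 4.96 TPM. Of the outflow tract and the second heart field, Wnt11 had 45.4 ± 2.99 TPM, the guidance gene Sema3c 42.8 ± 8.05 TPM and the forkhead factor Foxc2 41.7 TPM. Isl1, the factor of undifferentiated progenitors, had 6.41 ± 2.99 TPM and Tbx1 0.876 TPM.

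Most markers of skeletal muscle, endoderm, liver and neurons, tissues that border the heart, were under 1 TPM. All 11 skeletal muscle progenitor genes were under 1 TPM and summed to at most 0.809 TPM in any heart. Of 12 foregut and pharyngeal endoderm genes, 11 were under 1 TPM. The exception was the keratin gene Krt7 at 42.5 ± 4.43 TPM. Of 16 liver genes, 12 were under 1 TPM, with Alb listed at 0 and Afp at 0.165 TPM, and the sum was mostly Trf, the transferrin gene, at 19.6 ± 5.81 TPM. Of 18 neuronal genes, 12 were under 1 TPM, and Tubb3, a beta tubulin of neurons, led with 41.6, 26.6, 26.9, 26.6 and 22.9 TPM. Macrophage genes were led by Lyz2 (40.9 TPM), Laptm5 (9.24 TPM) and Coro1a (8.30 TPM), and megakaryocyte genes by Pf4, a chemokine of platelets, at 35.6 ± 9.56 TPM.

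The 23 genes of glycolysis and hypoxia took between 1.04% and 1.26% of TPM. Ldha, encoding lactate dehydrogenase A, was at 2580 ± 254 TPM, above Ldhb 7.25-fold, with the glycolytic enzymes Aldoa at 1978 ± 136 TPM and Tpi1 at 1613 ± 120 TPM. The glucose transporter gene Slc2a1 exceeded the insulin-regulated Slc2a4 41.6-fold, Hk1 exceeded Hk2 6.47-fold, and the brain-type creatine kinase Ckb exceeded the muscle-type Ckm 114-fold. Eno1 is counted at 417 TPM and its near copy Eno1b at 1688 TPM, so the split between these copies and the comparison with Eno3 (370 TPM) are uncertain. Among subunits of cytochrome oxidase the forms found in most tissues led over the forms of adult striated muscle: Cox6a1 over Cox6a2 4.17-fold, Cox7a2 over Cox7a1 2.42-fold and Cox8a over Cox8b 191-fold. Of the fatty acid pairs, Fabp3, the heart binding protein, exceeded Fabp4 118-fold, while Cpt1a and Cpt1b overlapped.

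The 22 imprinted genes took 2.35% of all TPM. H19 was at 8556, 9456, 8620, 8589 and 8595 TPM, a narrow range with replicate 2 highest. Igf2, the growth factor that neighbours it and is expressed from the other parental allele, was at 3311 ± 162 TPM, also highest in replicate 2 at 3596 TPM. Cdkn1c, a cell cycle inhibitor, had 3407 ± 150 TPM and Mest, an enzyme-like protein of mesoderm, 3965 ± 228 TPM. Cycling genes were steady too: Mcm6, a helicase subunit, had 281 ± 5.81 TPM, Rrm2, a ribonucleotide reductase subunit, 278 TPM and Top2a, a topoisomerase, 277 ± 13.4 TPM. Of the immediate early and heat shock genes, which can respond to handling, the chaperone Hspb1 led with 621 ± 32.3 TPM, Hsph1 had 109 TPM and Fos 7.95 TPM.

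Spread between the hearts was then set against 2 standards over 14099 genes with enough counts. The measure is the between-heart coefficient of variation (CV), the spread left after the counting variance is removed, as a percentage of the mean. By edgeR's goodness of fit with counting noise alone, 9228 genes (65.5%) varied beyond it at a Benjamini-Hochberg adjusted p under 0.05. That share rose with level, from 42.8% of genes under 1 TPM to 100% of the 88 genes of at least 1000 TPM, while the median counting error dropped from 19.5% to 0.602% of the mean. The median CV of all tested genes was 6.08%. By level it was 20.5% under 1 TPM, 4.35% from 100 to 1000 TPM and 4.48% at 1000 TPM and over. A stricter call asked whether a gene varied more than genes of like level, by the same test with edgeR's trended dispersion. It held for 287 genes (2.04%), of which 94 were called again with each heart left out in turn. A further test, made from edgeR's quasi-likelihood fit, set each gene's own spread against the trend. It allowed for scatter of genes about that trend, which the stricter call does not. This test called 65 genes, all of them among the 287, and 657 at an unadjusted p under 0.05.

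**Figure D3:**
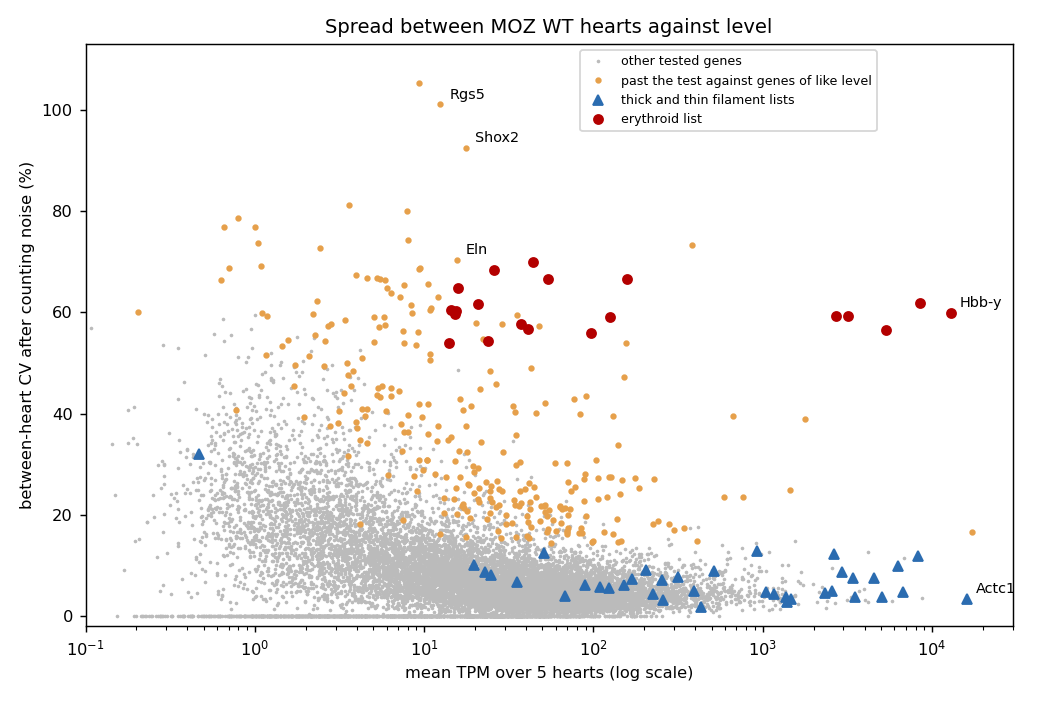
Between-heart CV after counting noise (percent) against mean TPM (log axis) for the 14099 tested genes. Orange points passed the test against genes of like level and blue triangles are the filament genes. Red circles are the erythroid list, which forms a band near 60%, while most filament genes lie far lower.

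Counts by list are read against the 2.04% of all tested genes that passed the test against genes of like level, a share that gives less than 1 gene in a list of 25. None of the 13 thick filament genes and none of 25 tested thin filament genes passed it, at median CVs of 7.52% and 5.02%. The median over tested genes of all levels was 6.08%. Both filament medians lay above those of tested genes at 100 to 1000 TPM (4.35%) and at 1000 TPM and over (4.48%). Cardiac transcription factors (0 of 23, median 5.17%) and glycolysis and hypoxia (0 of 23, 6.89%) also had none. Most of these genes did vary beyond counting noise: 13 of 13, 24 of 25, 21 of 23 and 23 of 23, against 65.5% of all tested genes. That share depends on level: it was 87.7% of tested genes at 100 to 1000 TPM and 100% at 1000 TPM and over. By the quasi-likelihood fit, too, 0 genes of these 4 lists were called. Proliferation had 1 of 22 (Mki67, 16.2%), imprinted genes 2 of 20 (Peg10 and Dlk1), endothelium 1 of 25 (Aplnr, an apelin receptor) and the ventricular list 1 of 10 (Pln). The immediate early and heat shock list had 0 of 14 and the neural crest list 0 of 5.

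In the other lists the called genes were few in number as well, and differences between lists were not tested. The outflow tract and second heart field list had 5 of 14 (Sema3c, Rgs5, Osr1, Isl1 and Tlx1) at a median CV of 18.7%, and the cushion list 4 of 20 (Col1a1, Col1a2, Postn and Has2) at 12.8%. Atrioventricular canal and sinus venosus had 3 of 10 (Hcn4, Shox2 and Isl1) and the atrial list 3 of 10 (Stard10, Nr2f1 and Nr2f2). Megakaryocytes had 3 of 8 (Itga2b, Ppbp and Gp1bb), calcium handling 2 of 17 (Pln and Atp2a1), epicardium 2 of 17 (Krt8 and Aldh1a2), ion channels 1 of 13 (Hcn4), trabecular myocardium 1 of 9 (Nppb), macrophages 1 of 7 (Cx3cr1), liver 1 of 1 (Trf), neurons 1 of 7 (Tubb3) and foregut 0 of 2. Under the quasi-likelihood fit the calls in these lists were Shox2, Osr1, Rgs5, Col1a2 and Postn.

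Red blood cell genes formed the largest group that varied together. All 20 erythroid genes, all of them tested, passed against 2.04% of tested genes, at a median CV of 59.8%, and 19 of 20 passed the quasi-likelihood fit (not Nfe2). This list, too, was chosen with earlier results of these data known. Hbb-y, the embryonic epsilon-type beta globin, was at 6066, 6184, 14490, 24597 and 13340 TPM. Hba-x, the embryonic zeta globin, was at 3777, 4037, 9166, 16397 and 8861 TPM. The order is the same in both: replicates 1 and 2 low, replicates 3 and 5 in the middle, and replicate 4 high. Summed over the list, levels were 15680, 15976, 37164, 63315 and 34610 TPM, from 1.57% to 6.33% of all TPM. Single genes of the list were 3.48-fold to 5.62-fold higher in replicate 4 than in replicate 1, with a median of 4.03.

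That span took in globins, membrane proteins and regulators alike. Slc4a1, the anion exchanger band 3 of the red cell membrane, was at 58.8, 75.5, 172, 319 and 165 TPM (adjusted p = 3.49e-86, edgeR goodness of fit). Klf1, the Krüppel-like factor of erythroid cells, was at 19.1, 20.1, 45.6, 74.7 and 45.8 TPM, and Gata1, their GATA factor, at 7.79, 7.77, 16.1, 30.2 and 15.3 TPM. Alas2, the rate-limiting enzyme of erythroid heme synthesis, was at 58.9, 69.8, 136, 242 and 122 TPM. The balance of Hbb-y to Hbb-bh1 and of Hba-x to Hba-a1 held steady while the totals moved. Their log2 ratios were 1.26 ± 0.07 and 1.62 ± 0.08 (SD, n = 5). The adult-type Hbb-bs was far lower, at 44.2 ± 30.5 TPM, 301-fold below Hbb-y. Hbb-b1, which shares sequence with Hbb-bs, was counted higher, at 108, 211, 394, 827 and 365 TPM. Between replicates 1 and 2 Hbb-b1 rose while Hbb-y was almost level. The copies Hba-a1 and Hba-a2, and Hbb-b1 and Hbb-bs, share sequence, so the split of reads within each pair is uncertain.

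The same order of hearts extended beyond the list. Of the 287 called genes, 126 (43.9%) were highest in replicate 4 with replicates 1 and 2 the lowest, against 531 of all 14099 tested genes (3.77%). Of the 126, 20 were the erythroid list and 106 were other genes. Examples chosen after their values were seen are Car2, a carbonic anhydrase of red cells, at 77.6, 86.7, 171, 282 and 161 TPM, and Fth1, the ferritin heavy chain, at 1090, 1172, 1590, 1951 and 1486 TPM. How much blood each heart held when it was lysed is not recorded in the labels, and its part in these values was not tested.

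The 25 genes of largest CV, among 266 that passed both tests with a mean of at least 1 TPM and a proper symbol, were then examined one by one. They run from Rgs5 (CV 101%) to Ppbp, the last inside at 63.1%, and the first outside was Plek2 at 63.0%. Replicate 4 was the highest heart for 16 of them, replicate 2 for 5 and replicate 5 for 4. Over all tested genes the shares were 16.2% for replicate 4, 28.3% for replicate 2 and 20.7% for replicate 5. Those of replicate 4 included the red cell genes Rhd (blood group protein), Hemgn (nuclear factor), Epb42 (membrane skeleton protein), Icam4 (adhesion molecule) and Slc4a1, the potassium channel gene Kcnn4, the manganese transporter gene Slc30a10, and Hbb-b1 and Hbb-bs. Hbb-b1 was at 108, 211, 394, 827 and 365 TPM, a CV of 73.3%. Lmx1a, a LIM homeobox factor, was at 1.32, 1.72, 2.91, 8.53 and 3.52 TPM, and its call was lost without replicate 4, as were those of Mst1, Ypel4 and Cldn13. Ppbp, a platelet chemokine, ran in another order, at 7.42, 13.4, 11.2, 24.0 and 4.18 TPM. Xlr3b, an X-linked imprinted gene, was at 0.860, 9.48, 8.06, 5.25 and 2.73 TPM. Of the 25, 13 also passed the quasi-likelihood fit. The others were Lmx1a, Mst1, Cx3cr1, Icam4, Kcnn4, Gtsf1, Xlr3b, Calca, Ypel4, Pdzk1ip1, Cldn13 and Ppbp.

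**Figure D4:**
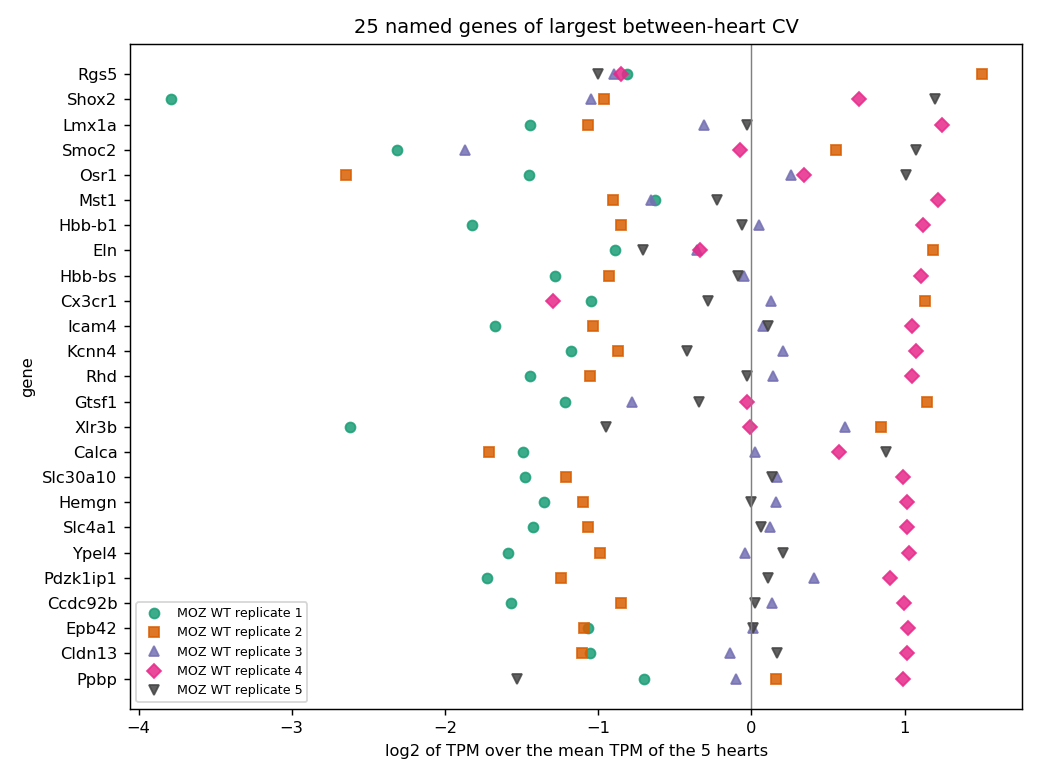
The 25 named genes of largest between-heart CV, with log2 of each heart's TPM over the mean of the 5 hearts. Rgs5 and Eln stand out in replicate 2 alone, Shox2 and Osr1 are highest in replicate 5, and the red cell genes repeat the order with replicate 4 highest and replicates 1 and 2 lowest.

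Replicate 2 stood far above the other hearts in Rgs5 and Eln, which are both expressed in vessel walls. Rgs5, a G protein regulator of pericytes, was at 7.10, 35.4, 6.71, 6.92 and 6.23 TPM (adjusted p = 6.77e-24, edgeR goodness of fit). Eln, encoding the elastin of arterial walls and the outflow tract, was at 8.44, 35.6, 12.2, 12.4 and 9.59 TPM (adjusted p = 5.00e-28, edgeR goodness of fit). In each, 4 hearts lay close together and replicate 2 far above. The calls rest on that heart: without it the CV was 0 for Rgs5 and 18.8% for Eln, and neither passed. The CV of Cx3cr1, a chemokine receptor of macrophages, went from 69.2% to 41.8%, also without a call.

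Other genes highest in replicate 2, chosen after their values were seen, were milder. The chemokine Cxcl12 was at 27.3, 59.4, 29.4, 25.9 and 26.4 TPM, and its CV dropped from 41.4% to 5.56% without replicate 2. Mfap4, a microfibril protein, was at 5.41, 20.3, 8.75, 10.1 and 9.20 TPM. The matrix genes Col1a1 (85.6, 165, 108, 112 and 128 TPM), Col1a2 (85.8, 178, 106, 112 and 135 TPM) and Postn (85.4, 155, 107, 106 and 79.1 TPM) were highest there too, and their calls held with any single heart left out. Replicate 2 was the highest heart for 71 of the 287 called genes (24.7%), and for 28.3% of all tested genes, so the number of such genes does not set it apart. How far the vessels were left on each heart is not recorded.

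A further set was highest in replicate 5 with replicate 4 next, and it included genes of the venous pole. Shox2, a homeobox factor of the sinus venosus and the pacemaker region, was at 1.28, 9.10, 8.61, 28.9 and 40.8 TPM (CV 92.5%, adjusted p = 1.23e-51, edgeR goodness of fit). It was lowest in replicate 1 and its highest heart was 31.8-fold above. Reads of Rsrc1, which overlaps it, may enter its count. Osr1, a factor of the posterior second heart field, was at 2.93, 1.28, 9.59, 10.2 and 16.1 TPM. Smoc2, a matricellular protein, was also highest in replicate 5 but next in replicate 2, at 1.59, 11.6, 2.15, 7.49 and 16.6 TPM. The calls of these 3 genes held with any single heart left out and in the quasi-likelihood fit.

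Some genes of the atria and the pacemaker had this order too, while the atrial list as a whole did not: it summed to 18494, 17854, 18237, 16126 and 17481 TPM, lowest in replicates 4 and 5. Nr2f1 was at 27.7, 26.6, 27.9, 44.3 and 48.0 TPM and Nr2f2 at 18.7, 19.3, 24.7, 26.4 and 34.4 TPM. Both encode COUP-TF factors of atrial identity. The pacemaker channel Hcn4 was at 56.2, 64.2, 55.5, 72.9 and 91.0 TPM. Vsnl1, a calcium sensor gene chosen after its values were seen, was at 13.6, 17.7, 20.7, 39.7 and 52.9 TPM, and the likewise chosen Wnt2, of the venous pole, at 25.6, 22.8, 27.9, 39.6 and 57.0 TPM. Among ventricular and trabecular genes chosen after their values were seen, Myl2, Nppb and Hey2 had their lowest or next lowest values in these hearts, at 7184 and 7077, 201 and 172, and 61.4 and 58.1 TPM. Myl2 and Hey2 did not pass the test against genes of like level (adjusted p = 0.882 and 0.258, edgeR goodness of fit), while Nppb did (adjusted p = 0.00112, edgeR goodness of fit), in 3 of the 5 fits that leave out a heart. In all, 31 of 287 called genes (10.8%) had replicate 5 highest and replicate 4 next, against 5.62% of tested genes.

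The pair of hearts high in that set also had Xist RNA, the long RNA of the inactive X chromosome. Xist was at 40.6 TPM in replicate 4 and 40.7 TPM in replicate 5, and at most 0.1 TPM in the others. The Y-linked genes ran opposite: Ddx3y was at 35.8, 37.1 and 38.1 TPM in replicates 1 to 3 and listed at 0 in replicates 4 and 5. Xist, Ddx3y and other genes absent from some hearts did not enter the tests. Of the X-linked genes that escape inactivation, Kdm5c was at 75.4, 78.9, 77.5, 108 and 110 TPM, Kdm6a at 22.1, 22.3, 21.2, 35 and 34.7 TPM and Eif2s3x at 55.0, 53.8, 53.3, 81.4 and 74.9 TPM. All 3 passed the test against genes of like level, against 2.04% of all tested genes. None passed the quasi-likelihood fit, where Kdm6a came nearest at an adjusted p of 0.0714 (edgeR). Each of the 3 was higher in replicates 4 and 5 than in any other heart. The part of this difference in the venous pole values was not tested, because both run over the same hearts and cannot be told apart. With replicates 4 and 5 left out, a fit chosen after seeing the data, Shox2 and Osr1 were called at CVs of 68.4% and 96.1%. These calls describe the spread among replicates 1 to 3 only and do not bear on the levels in replicates 4 and 5.

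Replicate 5 alone was low for 4 genes that lie close together on chromosome 4. Il11ra1, the interleukin 11 receptor, was at 45.8, 50.3, 46.0, 43.3 and 22.2 TPM (adjusted p = 1.69e-07, edgeR goodness of fit). Galt, an enzyme of galactose metabolism, was at 43.7, 45.0, 46.3, 40.1 and 22.2 TPM, Dctn3, a dynactin subunit, at 92.0, 103, 95, 96.7 and 52.7 TPM, and Rpp25l, a ribonuclease P relative, at 56.5, 45.9, 48.4, 50.3 and 27.6 TPM. In all 4 genes the other hearts lie close together and replicate 5 is at about the same fraction of them, 0.480 to 0.548 of the median of the other 4 hearts in scaled counts.

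Rpp25l and Dctn3 lie within chr4:41712033-41723163 and Galt and Il11ra1 within chr4:41755517-41769473 (GRCm38). Each of the 4 passed the test against genes of like level, and none passed the quasi-likelihood fit, where Il11ra1 came nearest at an adjusted p of 0.0976 (edgeR). Without replicate 5 their CVs fell to between 2.73% and 7.98%. Ccl27a, which follows Il11ra1, was at 0.465 of that median without a call. Il11ra2, a near copy of Il11ra1 that may share its reads, was at 0.478, also without a call. Cntfr, just before Rpp25l, was higher in replicate 5, by 1.69-fold over the median of the other 4 (adjusted p = 0.000991, edgeR goodness of fit). Nudt2, Dnajb5 and Vcp, further out on either side, were at 1.18, 0.887 and 0.978 of the same median. Searched for after the values were seen, runs of at least 3 neighbouring genes that differed in a single heart by over 0.6 on the log2 scale occurred elsewhere only at the 2 globin clusters, among 11631 genes with a mean count of at least 100.

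**Figure D5:**
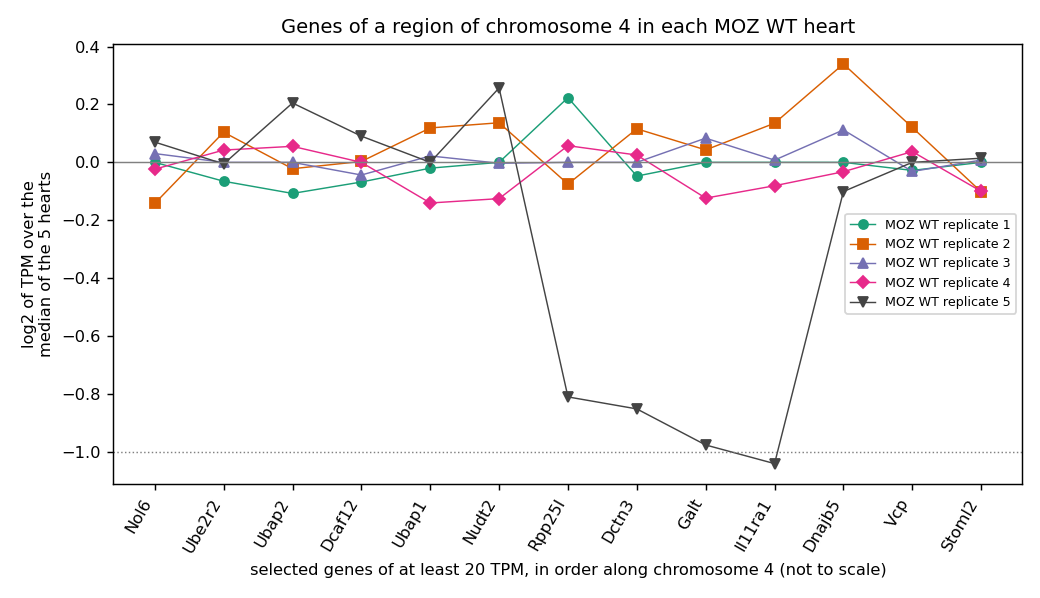
Log2 of each heart's TPM over the median of the 5 hearts for selected genes of at least 20 TPM in order along chromosome 4 (evenly spaced, not to scale), with a line per wild-type heart. Replicate 5 drops to near -1 (dotted line) at Rpp25l, Dctn3, Galt and Il11ra1 and returns to the other hearts on either side.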

How the data were processed

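RNA was taken from whole E10.5 hearts, and libraries were made with a kit that keeps the strand, per the labels' protocols. The authors deposited counts for each Entrez gene, whole numbers without normalization, with a gene length in bases. The submitters' processing notes name bcl2fastq, featureCounts and mm10. Not given in the sources used here are the aligner, the tool versions, the annotation and the strand setting, so antisense or overlapping genes may mix. Of 43 leading and variable genes searched, 6 overlap another tested gene: Myl2, Myl4, Mest, Myh7, Shox2 and Slc30a10. The single-heart files of 5 of 5 hearts held the counts of the joint table, which was used, and 0 columns lacked a sample. Symbols came from RefSeq, GRCm38.p6: 25275 of 27179 IDs matched, and the 1904 others held 3.80% to 4.54% of TPM.

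TPM came from the counts and the deposited gene length. Genes were filtered with edgeR's filterByExpr (a minimum count of 10 and a total of 15), scaled by trimmed mean of M values (factors 0.995 to 1.006) and tested by goodness of fit of an intercept-only model, with dispersion 0 for counting noise and with the trended dispersion for genes of like level. The common biological CV was 9.06%. Depth leaves counting error as a large part of the spread under 10 TPM and a small part above 100 TPM. Between these it is moderate, at a median of 3.16% of the mean beside a median CV of 5.37%. Because the filter required counts in all 5 hearts, 463 genes with a mean of at least 1 TPM were not tested, 126 of them under 200 bases. R 4.3.3, edgeR 4.0.16, DESeq2 1.42.0, Python 3.11.15, pandas 2.3.3 and matplotlib 3.10.9 were used.

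On counts simulated for 14099 genes, the counting noise test made 0 calls with counting noise alone. The test against genes of like level recovered 22%, 94%, 96% and 100% of genes given an added CV of 25%, 50%, 75% and 100%, with 3 of 159 calls false. The genes with added spread had a mean count of at least 100 and all others lay exactly at the trend, so these rates are best cases.

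Named are the 20 genes of highest mean TPM, the 25 of largest CV that passed both tests (mean of at least 1 TPM, proper symbol), the 3 highest members of each of 26 lists and its most variable member, and both genes of 33 pairs. Other list members are named as known markers, and genes outside this rule were chosen after their values were seen. Some genes are not reported here. The lists and pairs were chosen with earlier results of these data known. Alternatives were other scalings, filters and tests, levels without length, and leaving out hearts.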

Additional observations from a re-analysis of the deposited data

Results flagged for a closer look

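Among 104 values and sums checked over the 5 hearts, 10 had a single heart whose gap to the nearest other heart exceeded the 95% limit of Dixon's test. Chance flags about 1 in 20 groups of unselected values, but these were not unselected: Rgs5, Eln and Mst1 were among the genes chosen for their large CV, and the sums hold members that are listed singly. Of the 10, 6 fell in replicate 2, 3 in replicate 4 and 1 in replicate 1. In replicate 2, Rgs5 was at 35.4 TPM against 6.23 to 7.10 TPM in the others, Eln at 35.6 against 8.44 to 12.4 TPM, and H19 at 9460 against 8560 to 8620 TPM. There the imprinted list summed to 25200 against 22700 to 23300 TPM, the list of the outflow tract and the second heart field to 257 against 185 to 205 TPM, and the log2 ratio of Gja1 over Gja5 was 0.514 against 0.179 to 0.25. In replicate 4, Hsp90ab1 was at 3750 against 4020 to 4130 TPM, Mst1, a growth factor made by the liver, at 2.44 against 0.563 to 0.901 TPM, and the immediate early and heat shock list at 982 against 1060 to 1090 TPM. In replicate 1, the neuronal list summed to 71.1 against 48.4 to 53.1 TPM, led by Tubb3.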

How the results depend on the processing

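No paired analysis was possible because only 1 group of hearts was described. The count of genes beyond those of like level (287) moved to 65 with the quasi-likelihood fit and to 183 with replicates 4 and 5 (the hearts with Xist RNA) left out, an alternative chosen after seeing the data that also leaves fewer hearts. Leaving out each heart gave 216 to 260, and 7644 to 8219 beyond counting noise (9228). Requiring the count minimum in at least 2 hearts, chosen after seeing the data, gave 296 and 9766. DESeq2's dispersion outliers numbered 227, 221 of them shared. The share of the 20 highest genes (13.9%) was 8.96% without length, 12.7% without the erythroid list and 12.6% over genes of at least 200 bases, the last chosen after seeing the data. Without length, Tnni1 over Tnni3 moved from 1.35 to 1.79 and Mef2a over Mef2c reversed to -0.21. Among the 25 named variable genes, calls were lost for Gtsf1 without replicate 1, for Rgs5, Eln, Cx3cr1 and Gtsf1 without replicate 2, for Lmx1a, Mst1, Ypel4 and Cldn13 without replicate 4, for those 4 and Ppbp with replicates 4 and 5 left out, and for Mst1 and Gtsf1 with no count filter or with the minimum in 2 hearts. The causes were not tested. Genes under 10 TPM carry the most counting error, so a spread there is the least certain.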

Other observations

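Replicate 1 was the highest heart for 16 of the 287 genes beyond those of like level (5.57%), against 23.8% of all tested genes. The examples that follow were chosen after their values were seen. Adcy4, an adenylate cyclase, was at 16.4, 10.8, 10.3, 3.72 and 4.53 TPM (adjusted p = 4.31e-15, edgeR goodness of fit) and its call held with any heart left out and in the quasi-likelihood fit. Its values were lowest in replicates 4 and 5, the hearts with Xist RNA, and a link was not tested. Lin28a, an RNA-binding protein of early embryonic cells that declines as development goes on, was at 12.1, 5.01, 5.6, 6.24 and 7.75 TPM, and its CV of 38.0% was 17.9% without replicate 1. Tlx1, a homeobox factor in the outflow tract and second heart field list, was at 4.88, 3.29, 1.81, 1.53 and 1.5 TPM, also lowest in replicates 4 and 5. Replicate 1 was also the lowest heart for 170 of the 287 genes (59.2%), against 20.7% of all tested genes. Replicate 3 was the highest heart for 4 of the 287 (1.39%), against 11.0% of all tested genes. The labels give no somite count or exact stage for any heart.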
